A study of Mus musculus with 8 samples.

Results

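The genes described here are 3 neuropeptide genes of the striatum, Penk, Pdyn and Tac1, and 5 opioid and tachykinin receptor genes, Oprk1, Oprm1, Oprd1, Tacr1 and Tacr3. Members were found by gene name among the non-control probes of each array, which gave 8 of the 34787 gene and transcript names on the array, with 12 probes in all. RNA of sorted medium spiny neurons (MSNs, the inhibitory output cells of the striatum) from male mice aged 4 weeks was hybridised to mouse Agilent arrays with 1 dye, Cy3. The 4 arrays of the R6/2 group hold RNA of R6/2;Scn4b-Venus mice, and the 4 arrays of the control group hold RNA of WT;Scn4b-Venus mice. R6/2 mice model Huntington's disease and carry a transgene with the first exon of human huntingtin and an expanded CAG repeat. All mice of both groups carry Venus, a fluorescent protein that reports Scn4b, and the sort kept cells positive for Venus and negative for the dead-cell dye propidium iodide. The comparison asks which opioid and tachykinin genes of these neurons differ between the genotypes at this age. The labels do not say that the arrays of a group come from separate mice, so the p-values measure the spread between these samples, which may be technical.

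Opioid peptides are cut from long precursors. Penk encodes the precursor of the enkephalins and Pdyn that of the dynorphins, while Tac1 encodes the precursor of substance P, a tachykinin. In the striatum, Penk is known as a marker of MSNs of the indirect pathway, which carry the dopamine receptor Drd2, and Pdyn and Tac1 as markers of MSNs of the direct pathway, which carry Drd1. Enkephalins act mainly on the delta and mu receptors (Oprd1, Oprm1), dynorphins on the kappa receptor (Oprk1), and tachykinins on the neurokinin receptors (Tacr1, Tacr3), all of which couple to G proteins.

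Levels are log2 of the processed spot intensity over the array's 75th percentile, so a level says how a probe stands on its array and cannot be set against the level of another probe. Differences are R6/2 minus control. The share of probes well above background was 50.1% on control replicate 1, 67.8% to 76.2% on the other control arrays and 74.0% to 78.8% on the R6/2 arrays. A second slide held only R6/2 replicate 4. All 12 MSN markers were tested, and 12 of 12 differences were negative, with a median of -0.49 and summed levels of 580 to 727 on control arrays and 422 to 517 on R6/2 arrays. Oligodendrocyte markers summed to 6.24 to 41.2 on control arrays and 6.10 to 13.5 on R6/2 arrays, in units of the 75th percentile. Their differences were negative for 6 of 6 tested, with a median of -0.84, and 0 had an unadjusted limma p under 0.05. The part of oligodendrocyte RNA in the results was not tested. Of 13 interneuron markers, 10 were tested, with sums of 5.59 to 7.61 on control arrays and 5.05 to 14.0 on R6/2 arrays, while Chat, Vip and Calb2 were not well above background.

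Of the 8 genes, 6 were tested, and their representing probes were well above background on all 8 arrays. No member passed limma's adjusted p of 0.05 over 26915 genes, where 1 gene passed (0.00372%). The members were chosen with earlier results of these data known, so the shares over all genes beside them are a description and no test. At an unadjusted limma p under 0.05, 3 members had lower values in R6/2, namely Penk, Pdyn and Oprk1, against 3.45% of all genes. Every R6/2 array lay below every control array for Penk and Oprk1, against 2.57% of all genes, and above every control array for 0 members, against 2.16%. The difference was negative for 6 of the 6 tested members, against 46% of all genes, and its median was -0.59 over the members and 0.03 over all genes. One of these 6, Oprm1, enters the count and the median by a probe that holds a repeat, described with that gene. Its other probes gave -0.38, +0.97 and +0.14, and no direction is given for Oprm1.

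**Figure D1:**
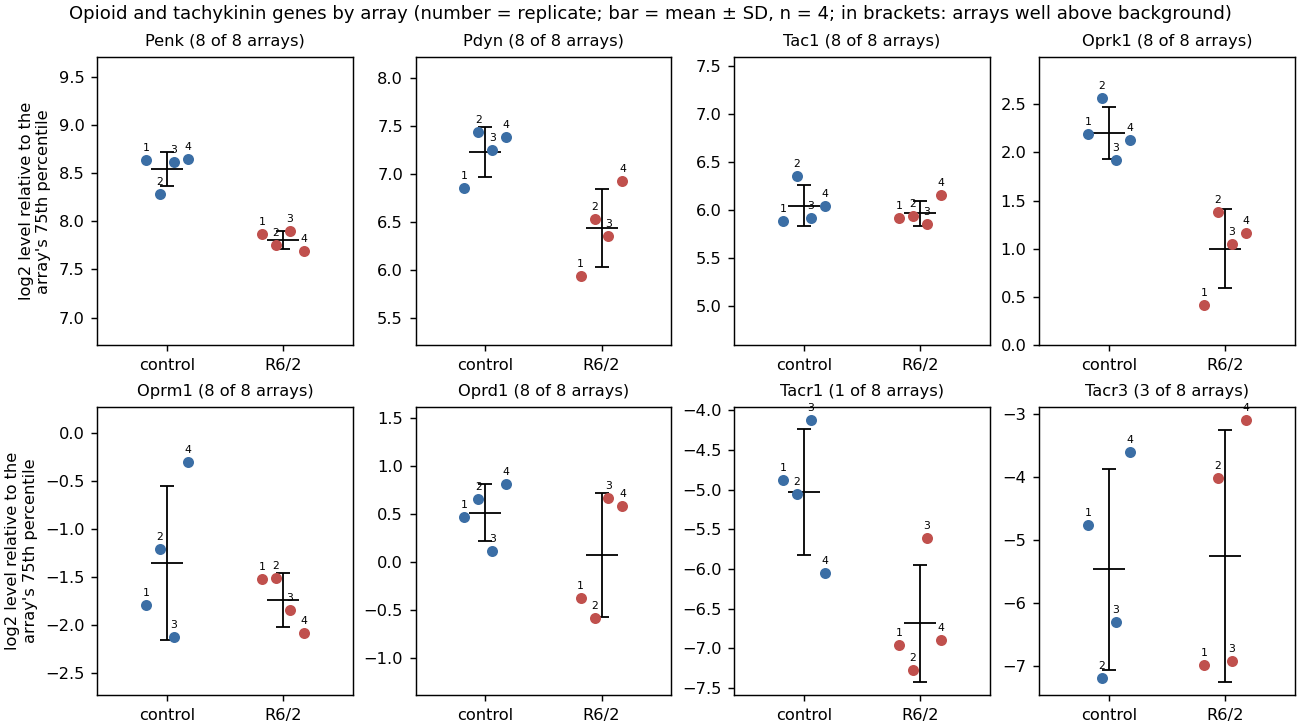
Log2 level (array's 75th percentile = 0) of the 8 genes on the 4 control and 4 R6/2 arrays; points are arrays numbered by replicate, bars are the mean ± SD, Pdyn is shown by its brighter probe and Oprm1 by its probe with 10 spots. The 4 R6/2 arrays lie below the 4 control arrays for Penk and Oprk1, and the groups overlap in the other 6 panels.

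Penk, the enkephalin precursor gene, had a level of 8.64, 8.28, 8.62 and 8.65 on control replicates 1 to 4. On R6/2 replicates 1 to 4 its level was 7.87, 7.76, 7.90 and 7.69. All R6/2 arrays were low and close together, and the lowest control array, replicate 2, was still above the highest R6/2 array. The group means were 8.55 ± 0.18 (SD, n = 4) and 7.81 ± 0.10 (SD, n = 4). The difference was -0.74 with a standard error of 0.17, a 1.67-fold lower level with a 95% interval of 1.27 to 2.20 (limma adjusted p = 0.512). With a trended and robust eBayes fit, Penk was the 1 member that passed (limma adjusted p = 0.0463), in a fit that called 11 of 26915 genes (0.0409%). In order of p-value Penk stood at place 111 of 26915 genes. The single probe lies on chr4:4060724-4060783 of mm9, minus strand. In the authors' deposited table the same probe was 1.68-fold down with a corrected p of 0.371. Each array holds RNA of many cells, so fewer cells of a type and less RNA per cell cannot be told apart for Penk or for any other gene here.

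Pdyn, the dynorphin precursor gene, was read by 2 probes. The brighter probe, on chr2:129512323-129512382 of mm9, minus strand, had a level of 6.86, 7.44, 7.25 and 7.38 on control replicates 1 to 4. On R6/2 replicates 1 to 4 its level was 5.94, 6.53, 6.35 and 6.92. Only R6/2 replicate 4, the array on the second slide, reached into the control range, where it lay just above control replicate 1, the array with the fewest probes above background. The difference was -0.79 with a standard error of 0.25 and a 95% interval of -1.37 to -0.22 (limma adjusted p = 0.607). Without R6/2 replicate 4 it was -0.96 and without control replicate 1 it was -0.92. Only these 2 arrays crossed, so leaving out either one ends the overlap by construction and is no check of the difference.

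The other Pdyn probe lies in the coding sequence, on chr2:129513968-129514027 of mm9, minus strand, and its sequence is shown because it holds part of the opioid peptide itself. Capitals mark the codons of the motif with which opioid peptides begin, here at the start of alpha-neoendorphin.
Pdyn coding probe: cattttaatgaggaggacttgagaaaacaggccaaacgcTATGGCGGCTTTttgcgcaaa
This probe had a level of 2.08, 1.53, 1.61 and 1.52 on control replicates 1 to 4 and 0.54, 1.25, 1.02 and 1.95 on R6/2 replicates 1 to 4. R6/2 replicates 1 to 3 were below all control arrays, while R6/2 replicate 4 was above 3 of them. The difference had the same sign as that of the brighter probe but was smaller, -0.49 with a standard error of 0.32 and a 95% interval of -1.22 to 0.23 (limma over all 41379 tested probes, of which 0.00242% passed, adjusted p = 0.788). For both Pdyn probes R6/2 replicate 1 was the lowest array and R6/2 replicate 4 the highest of its group.

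Tac1, the substance P precursor gene, had a level of 5.89, 6.35, 5.92 and 6.04 on control replicates 1 to 4. On R6/2 replicates 1 to 4 its level was 5.92, 5.94, 5.85 and 6.16. The groups overlapped throughout, with only control replicate 2 standing above all R6/2 arrays. The difference was -0.08 with a standard error of 0.18 and a 95% interval of -0.50 to 0.34 (limma adjusted p = 0.945), and it turned to +0.014 with quantile normalization and to +0.0198 without control replicate 2. The interval holds changes in both directions, so these arrays do not show that the level was equal. The probe lies on chr6:7512893-7512952 of mm9, plus strand.

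Among the receptors, Oprk1, which encodes the kappa receptor that dynorphins bind, had the largest difference of the tested probes. Its level was 2.19, 2.57, 1.92 and 2.13 on control replicates 1 to 4 and 0.41, 1.38, 1.04 and 1.16 on R6/2 replicates 1 to 4. The highest R6/2 array lay below the lowest control array, and R6/2 replicate 1 was the lowest of all. The group means were 2.20 ± 0.27 (SD, n = 4) and 0.999 ± 0.41 (SD, n = 4). The difference was -1.20 with a standard error of 0.26, a 2.30-fold lower level with a 95% interval of 1.54 to 3.45 (limma adjusted p = 0.441). Without R6/2 replicate 1 it was -1.01. Oprk1 stood at place 78 of 26915 in order of p-value, ahead of Penk at place 111 and Pdyn at place 547. The probe lies on chr1:5592825-5592884 of mm9, plus strand, and in the authors' deposited table it was 2.31-fold down with a corrected p of 0.706.

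Oprm1, the mu receptor gene, has 4 probes, and they did not give 1 answer. The probe with the highest level, which stands for the gene under the rule used for all genes, holds a run of 27 bases of alternating A and C. Its repeat is shown with the probe that the array carries as 10 spots, with the repeat in capitals.
Oprm1 repeat probe, 30 bases around the repeat: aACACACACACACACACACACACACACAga
Oprm1 probe with 10 spots: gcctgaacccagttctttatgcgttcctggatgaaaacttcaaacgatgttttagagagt
The repeat probe, on chr10:3308332-3308391 of mm9, had a mean level of 7.81, and 148 of 55681 probes (0.266%) were brighter. Over the array, the 132 probes with a dinucleotide run of 16 bases or more had a median level of 7.95 against -2.49 for the other probes, and 116 of them had a level of 5 or more, whichever gene they were named for. The level of this probe was therefore not taken as a level of Oprm1.

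**Figure D2:**
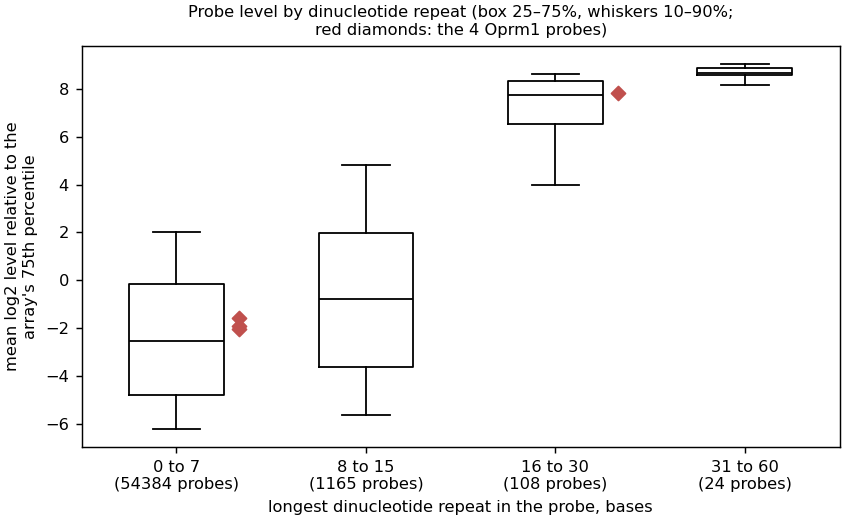
Mean log2 level over 8 arrays (array's 75th percentile = 0) of probes grouped by their longest dinucleotide repeat in bases; boxes span the quartiles around the median, whiskers the 10th to the 90th percentile, and red diamonds are the 4 Oprm1 probes. The Oprm1 probe with a run of 27 bases sits among the bright repeat probes and the other 3 sit near the level of ordinary probes.

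The repeat probe had a level of 7.88, 7.88, 7.92 and 7.97 on control replicates 1 to 4 and 7.93, 7.74, 7.55 and 7.62 on R6/2 replicates 1 to 4, a difference of -0.20 (limma adjusted p = 0.828). Over all 132 repeat probes the median difference was -0.03, and 83 of them were negative. The probe with 10 spots, on chr10:3516154-3516213 of mm9, had a level of -1.79, -1.21, -2.13 and -0.30 on control replicates 1 to 4 and -1.52, -1.51, -1.84 and -2.09 on R6/2 replicates 1 to 4. Control arrays spread around the whole R6/2 range, with control replicate 4 highest and control replicate 3 lowest. The difference was -0.38 with a 95% interval of -1.28 to 0.51 (limma over all tested probes, adjusted p = 0.869). On single arrays the SD over its spots was between 0.09 and 0.23, whereas the SD over arrays was 0.80 in control and 0.28 in R6/2. The other 2 probes, named for the transcripts ENSMUST00000143875 and ENSMUST00000133486, gave differences of +0.97 (adjusted p = 0.733) and +0.14 (adjusted p = 0.942) in the same limma fit. Both signs occur among the 4 probes, and no direction is given for Oprm1.

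Oprd1, the delta receptor gene, had a level of 0.47, 0.66, 0.12 and 0.82 on control replicates 1 to 4 and -0.37, -0.58, 0.67 and 0.58 on R6/2 replicates 1 to 4. R6/2 replicates 1 and 2 were below all control arrays, and R6/2 replicates 3 and 4 lay inside the control range. The difference was -0.44 with a standard error of 0.33 and a 95% interval of -1.20 to 0.32 (limma adjusted p = 0.811). The probe lies on chr4:131666647-131666706 of mm9, minus strand.

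The tachykinin receptors were at the edge of detection. Tacr1, the receptor for substance P, was well above background on 1 of 4 control arrays and 0 of 4 R6/2 arrays, and its probe lies on chr6:82509613-82509672 of mm9, plus strand. Its mean control level of -5.03 did not exceed the mean over the R6/2 arrays of the lowest signal called above background, -4.96, so no fold is given. Tacr3, a receptor for other tachykinins, was well above background on 1 of 4 control arrays and 2 of 4 R6/2 arrays, and its probe lies on chr3:134596904-134596963 of mm9, plus strand. Neither gene was tested. In the authors' deposited table, which lists this probe as well, Tacr1 was 3.16-fold down with a corrected p of 0.836.

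**Figure D3:**
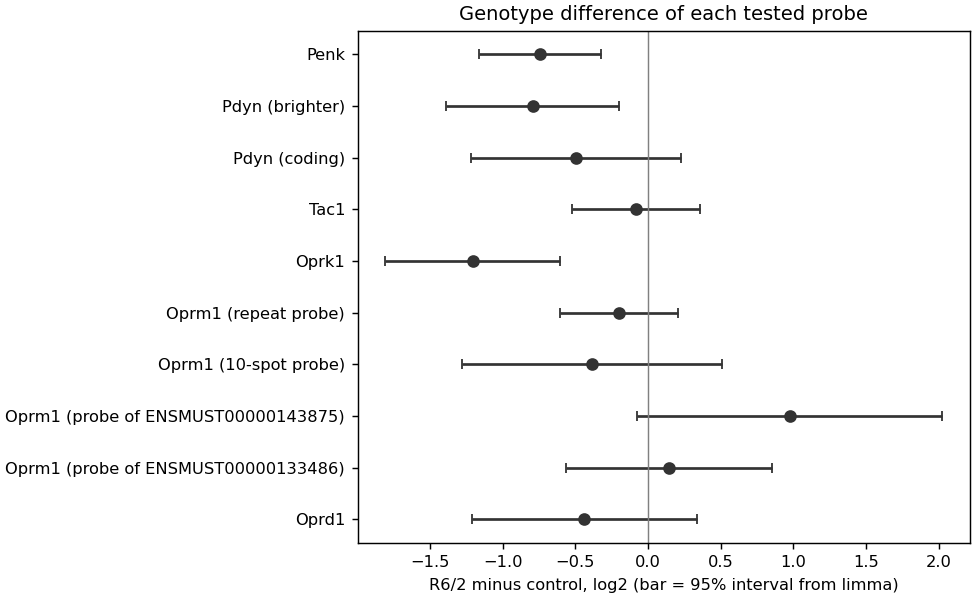
Difference R6/2 minus control (log2) of the 10 tested probes of the members, with 95% intervals from limma over all tested probes; n = 4 arrays per group. The intervals of Penk, the brighter Pdyn probe and Oprk1 lie below 0, and those of the other 7 probes include 0.

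Some arrays stand apart, and the members were also compared without them. On the first slide alone, which leaves out R6/2 replicate 4, the differences were -0.71 for Penk, -0.96 for Pdyn and -1.26 for Oprk1. Without control replicate 1 they were -0.71, -0.92 and -1.21. None of these passed limma's adjusted p of 0.05. The groups of Penk and Oprk1 did not overlap with all arrays, so leaving arrays out could not make them overlap.

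Differences between members within an array do not depend on the scaling of that array, so 5 pairs were compared by exact two-sided permutation tests over the 70 assignments of 8 arrays, whose smallest p is 0.0286. Pdyn minus Tac1, the contrast of the direct pathway peptides, was 0.97, 1.08, 1.33 and 1.34 on control replicates 1 to 4 and 0.02, 0.59, 0.50 and 0.76 on R6/2 replicates 1 to 4. Every R6/2 array was below every control array, so that Pdyn stood lower relative to Tac1 in all of them. The shift was -0.71 (exact permutation p = 0.0286, 0.0714 adjusted over the 5 pairs). With the coding probe in place of the brighter Pdyn probe it was -0.41 (exact permutation p = 0.257). The SD of this contrast was 0.18 in control and 0.32 in R6/2.

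Penk minus Tac1 shifted by -0.66 (exact permutation p = 0.0857, adjusted 0.143), with control replicate 2 alone inside the R6/2 range. Penk and Pdyn, the opioid precursors of the indirect and the direct pathway, shifted by 0.05 relative to each other (exact permutation p = 0.857). This shift turned sign in 5 of 20 alternatives, several of which, such as another percentile scaling or the replicate block, cannot move it. The SD of that contrast was 0.39 in control and 0.49 in R6/2, far larger than the shift. Oprk1 relative to the gene of its ligand, Pdyn, shifted by -0.41 (exact permutation p = 0.143, adjusted 0.179), with overlapping groups. Oprk1 minus Oprm1 shifted by -1.004 (exact permutation p = 0.0286, adjusted 0.0714), but that value used the repeat probe, and with repeat probes left out it was -0.82 (exact permutation p = 0.114). No pair passed after adjustment. A shift within an array shows unequal change and does not show which of the 2 genes changed.

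**Figure D4:**
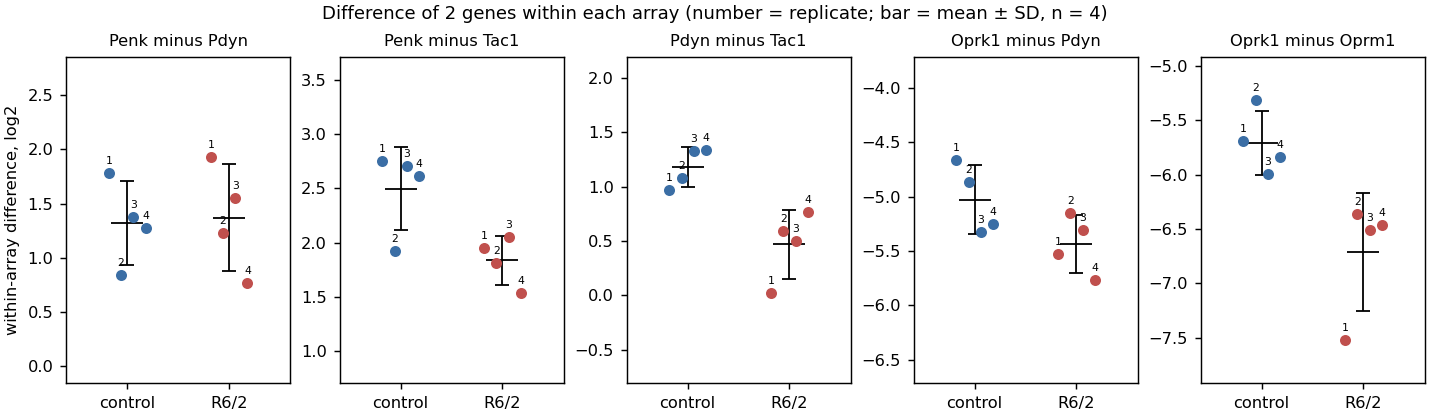
Difference of 2 members within each array (log2 units) for 5 pairs, on 4 control and 4 R6/2 arrays; points are arrays numbered by replicate and bars are the mean ± SD. The groups do not overlap for Pdyn minus Tac1, with the brighter Pdyn probe, and for Oprk1 minus Oprm1, with the Oprm1 repeat probe. With repeat probes left out, Oprk1 minus Oprm1 was -0.82 (exact permutation p = 0.114).

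The promoters of Pdyn and Tac1 are shown because they belong to the pair of direct pathway peptide genes compared above, whose shift did not pass after adjustment. RefSeq (GRCm38.p6) gave promoters for 6 of the 8 members, the others being Penk and Oprk1, and the 250 bases before the start are printed, in capitals where the half-site TGACG of the cAMP response element, the motif bound by CREB, or its reverse complement occurs.
Tac1 promoter, chr6:7554811-7555060, plus strand: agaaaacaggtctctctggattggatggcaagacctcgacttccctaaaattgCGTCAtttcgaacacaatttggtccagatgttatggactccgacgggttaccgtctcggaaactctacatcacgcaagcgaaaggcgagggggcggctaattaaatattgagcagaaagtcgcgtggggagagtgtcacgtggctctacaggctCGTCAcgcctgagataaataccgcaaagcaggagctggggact
Pdyn promoter, chr2:129699939-129700188, minus strand: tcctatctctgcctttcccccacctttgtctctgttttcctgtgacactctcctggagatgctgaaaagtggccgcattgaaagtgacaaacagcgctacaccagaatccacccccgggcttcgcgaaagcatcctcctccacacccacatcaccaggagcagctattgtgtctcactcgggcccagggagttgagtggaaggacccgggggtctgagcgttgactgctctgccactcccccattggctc
The Tac1 window held 2 half-sites, at -197 and -43 from the start, and the Pdyn window held none, nor did a second Pdyn window in the table. Tacr1 and Tacr3 held 1 half-site each, and the windows of Oprm1 and Oprd1 held none. Searched on both strands, TGACG occurred in 17.8% of 32851 promoter windows of that length, the full element TGACGTCA, which contains it, in 1.55%, and the AP-1 motif TGANTCA in 6.75%. Neither window held a full element or an AP-1 motif. A match describes the letters of the window and is not a binding site.

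The receptors that mark the cell classes were read beside the peptides. Drd2 and Penk, both of the indirect pathway, were each lower on every R6/2 array, and the difference of Drd2 was -0.88 (limma adjusted p = 0.555). Adora2a, another gene of that pathway, had a difference of -0.53 with overlapping groups. In the direct pathway, Drd1 had a difference of -0.76 with overlapping groups (limma adjusted p = 0.634), and the muscarinic receptor gene Chrm4 had -0.77 with every R6/2 array below every control array. Apart from the peptide pairs above, no difference between the pathways was tested. Summed direct pathway markers (7 genes, repeat probes left out) were 30.5 to 34.3 on control and 19.5 to 24.2 on R6/2 arrays. Of all 8 direct pathway markers, 6 differences were negative, which counts Eya1, left out of the sum, at -0.00062 on a repeat probe. Summed indirect pathway markers were 88.7 to 130 on control and 54.6 to 80.3 on R6/2 arrays, also with 6 of 8 negative. In that sum Drd2, with a mean control level of 6.19, weighs most. Positive differences were those of Isl1 (+0.26) and Ebf1 (+0.55) in the direct list, and of Sp9 (+0.65) and Adk (+0.66) in the indirect list. For Isl1 and Sp9 every R6/2 array lay above every control array. At an unadjusted limma p under 0.05, the indirect list held 2 lower and 2 higher genes, against 3.45% and 3.7% of all genes. By the same cut the direct list held 4 lower and 0 higher of 8, and the MSN list 6 lower and 0 higher of 12. Scn4b, the gene whose reporter was used for the sort, had a difference of -1.15 (limma adjusted p = 0.555). The part of these shifts in the values of Penk, Pdyn and Oprk1 was not tested.

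The genes whose levels over the 8 arrays were nearest to a member's, after centring each gene on its own mean, are given as a description. For Penk they were Slc8a2, a sodium-calcium exchanger (mean absolute difference 0.0723), Cacna2d3, a calcium channel subunit (0.0872), and Rasgrp2, an activator of small G proteins (0.0901). For Pdyn they were Usp28, Galnt18 and Phf14, at 0.144 to 0.156. For Tac1 they were Adgrb2, the mitochondrial gene COX2 and Mrfap1, at 0.0366 to 0.0523. For Oprk1 they were Tpst1, Tmem25 and Arpp21, at 0.177 to 0.202. The measure grows with the spread of a gene's own levels, so its values cannot be set against each other between members.

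Of the 6 other genes of the opioid and tachykinin families, 3 were tested, with 2 negative and 1 positive difference and none called. Pomc, the precursor of beta-endorphin, had a difference of +0.66 and Oprl1, the nociceptin receptor, -0.22. Tacr2, a tachykinin receptor, was at -0.12 on its brightest probe, which holds a repeat of 24 bases. Pnoc, Tac2 and Tac4, which encode other peptide precursors, did not reach the detection limit on enough arrays.

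Of the genes that process the precursors, 12 were tested, 4 with a negative and 8 with a positive difference, and the median was 0.10. Pcsk1, a prohormone convertase that cuts peptide precursors, was well above background on 4 of 4 R6/2 arrays and on 0 of 4 control arrays, at least 2.67-fold higher in R6/2 against the mean detection limit of the control arrays (limma adjusted p = 0.0948). Its R6/2 mean of -2.80 lay just below the limit of control replicate 1, -2.78, and Pcsk1 passed the filter on dim probes only through the R6/2 arrays. The other 3 named were Pcsk1n, an inhibitor of that convertase (+0.30), Cpz, a carboxypeptidase (-0.35), and Qpct, which modifies peptide ends (-0.72). The groups of these 3 overlapped.

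Of the enzymes that break peptides down, 11 were tested, 6 with a negative and 5 with a positive difference, and the median was -0.03. Ace, a peptidyl dipeptidase that is known to cut enkephalins, had a difference of -1.95 with every R6/2 array below every control array (limma adjusted p = 0.414). The peptidase Nln had a difference of +0.54 with every R6/2 array above every control array, and +1.52 on its other probe. Ece2 (+0.56, and +1.73 on its other probe) and Ece1 (-0.62), both endothelin-converting enzymes, had overlapping groups. None passed the adjusted threshold.

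Of 33 tested genes of receptor signalling, 14 were negative and 19 positive with a median of 0.03, and 3 were lower and 3 higher at an unadjusted limma p under 0.05, against 3.45% and 3.7% of all genes. Rgs4, which speeds the end of G protein signalling, had a difference of -0.70, and -0.97 on its other probe, and Rgs14, of the same family, had -1.004. In both, every R6/2 array was below every control array. Gng3, a G protein gamma subunit, was at +0.59 with every R6/2 array above control. Kcnj3, a potassium channel subunit opened by opioid receptors, was at +1.26, but its other probe gave +0.12.

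Of 30 tested regulators of peptide genes, 15 were negative and 15 positive with a median of -0.05, again with 3 lower and 3 higher at an unadjusted limma p under 0.05. Nfya, a subunit of the CCAAT-binding factor, was at +2.22 and Fosb, an activity-regulated AP-1 subunit, at +0.98, both with every R6/2 array above control. The retinoid receptor genes Rarb (-0.67) and Rxrg (-0.97, and -0.29 on its other probe) had every R6/2 array below control. None of the 4 passed the adjusted threshold.

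Of 27 tested genes for other striatal peptides and their receptors, 15 were negative and 12 positive, with a median of -0.05. Crh, the precursor of corticotropin-releasing hormone, was at -2.71 with overlapping groups, and the neuropeptide Y receptor gene Npy2r at -1.24. Gal, the galanin precursor, was at +0.36 with every R6/2 array above control. Npy was well above background on 0 of 4 control arrays and 4 of 4 R6/2 arrays, but its R6/2 mean did not exceed the mean detection limit of the control arrays, so no fold is given. Of the 116 tested genes in the 6 lists, none passed the adjusted threshold.

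**Figure D5:**
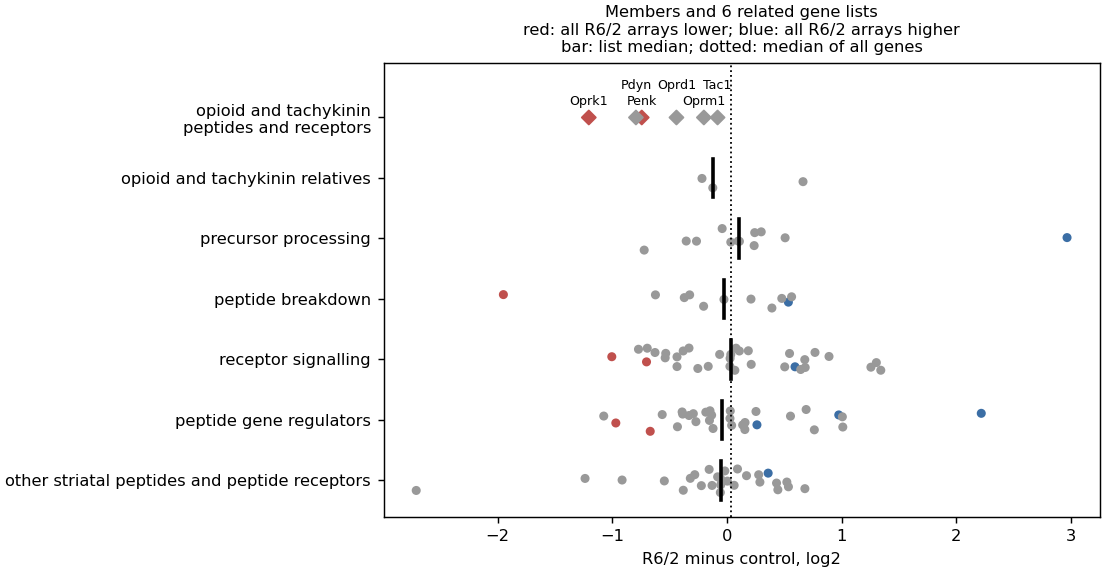
Difference R6/2 minus control (log2) of the 6 tested members (diamonds, Oprm1 by its repeat probe) and of the tested genes of 6 related lists (points, jittered vertically); vertical bars are list medians and the dotted line is the median of all genes, 0.03. The members lie at or below -0.08, while the lists lie on both sides of 0 with medians from -0.12 to 0.10. Negative differences are not particular to the members: MSN markers, not shown, were negative in 12 of 12, with a median of -0.49. Direct and indirect pathway markers, not shown, were negative in 6 of 8 each, with medians of -0.61 and -0.25. Other Oprm1 probes gave both signs.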

How the data were processed

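Each deposited scanner file holds spot intensity from Agilent Feature Extraction 10.7.3.1, background-subtracted and not scaled between arrays, per the file headers. One garbled line of R6/2 replicate 3 was left out. The deposited table also holds the authors' log2 values, an absolute fold change, and a p-value from an unpaired test with its corrected p-value, per the file headers. The headers place the probes on mm9, whose exon annotation was not used here. Names were updated through RefSeq (GRCm38.p6).

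Outlier spots were dropped, spots of a probe averaged, and log2 intensity taken relative to the 75th percentile of the 55681 non-control probes of each array. Probes well above background on at least 4 of 8 arrays were tested (41379), and a gene was represented by its brightest tested probe (26915 genes). limma 3.58.1 on R 4.3.3 (lmFit, eBayes, two-sided, Benjamini-Hochberg) gave p-values, and the number of arrays limits the precision. A bound sets a group's mean against the other group's mean of, per array, the lowest signal well above background or the probe's own, whichever is higher. The fit was tested on simulated data. Named genes are the members, up to 4 genes of each list with the smallest p, and the 3 nearest genes of 4 members. Drd1, Chrm4, Drd2, Adora2a and Scn4b were named because a result sits beside them. Isl1, Ebf1, Eya1, Sp9 and Adk were named because they bear on the counts of their marker lists. The members and lists were chosen with earlier results of these data known, and the repeat probes and the Pdyn coding probe were set apart after seeing the data.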

Additional observations from a re-analysis of the deposited data

Results flagged for a closer look

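In 34 groups of 4 arrays, taken over the member probes and the pairs, 3 held an array far from the other 3, and chance marks about 1 group in 20. Control replicate 2 was at 8.28 for Penk with the next control array at 8.62. Control replicate 1 was at 2.08 for the coding probe of Pdyn with the next control array at 1.61. R6/2 replicate 1 was at -7.52 for Oprk1 minus Oprm1, with the next R6/2 array at -6.51.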

How the results depend on the processing

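Over 23 alternatives, the differences of Penk (-0.83 to -0.68), Pdyn (-0.96 to -0.49), Oprk1 (-1.33 to -1.01) and Oprd1 (-0.64 to -0.22) kept their sign. Several alternatives, such as the replicate block or another form of test, change the p-value and cannot change a difference. The first slide alone is the same set of arrays as leaving out R6/2 replicate 4. The 23 are therefore not independent checks of the sign. The number of members passing the adjusted threshold was 0 except with eBayes with trend and robust, where it was 1 (Penk, limma adjusted p = 0.0463). Penk's adjusted p ran from 0.0463 to 0.817 over the alternatives. Members without overlap numbered 2 with all arrays, against 2.57% of all genes lower and 2.16% higher. They numbered 3 only in some settings of 4 against 3 arrays, where groups separate more easily and no share over all genes was taken. Without R6/2 replicate 1 the third was Oprm1, by its repeat probe. The difference of Tac1 turned to 0.014 with quantile normalization and ran from -0.14 to 0.0198 with single arrays left out, positive without control replicate 2 only, and that of Oprm1 to 0.13 with the mean of its probes. Penk minus Pdyn turned to -0.10 with the mean of probes, -0.25 with the Pdyn coding probe, and ran from -0.13 to 0.25 with single arrays left out, negative without control replicate 2, R6/2 replicate 1 or R6/2 replicate 3. Penk minus Tac1 reached the smallest p with normexp (-0.66) and quantile normalization (-0.69), and Oprk1 minus Pdyn with the mean of probes (-0.56). Pdyn minus Tac1 was -0.56 with the mean of probes, -0.81 on the first slide and -0.41 with the coding probe, and Oprk1 minus Oprm1 was -1.09 on the first slide and -0.82 without repeat probes, none below an exact permutation p of 0.05. With single arrays left out, Pdyn minus Tac1 ran from -0.81 to -0.56 and Oprk1 minus Oprm1 from -1.12 to -0.73, but 4 against 3 arrays cannot go below an exact permutation p of 0.0571. The cause of these changes was not tested. Genes called among all genes numbered 1, and 8 with normexp, 8 with quantile scaling, 6 with the strictest filter on dim probes (all 8 arrays), 5 with the mean of probes, 11 with trend and robust, 9 with array weights, 3 without control replicate 1, and 0 with the replicate block, with the deposited table's kind of test, on the first slide and without any other single array.

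The replicate numbers are shared by the groups. The deviations of same-numbered arrays correlated at 0.03, -0.05, 0.00293 and -0.00542 across genes, and only replicate 1 correlated best with its own number. These values do not show a pairing, and the labels do not say whether same-numbered arrays were handled together. With the replicate block, Pdyn minus Tac1 was -0.71 and Oprk1 minus Oprm1 -1.004 (exact permutation p = 0.125, the smallest that 4 pairs allow), and no member was called. Signal over background limits Tacr1 and Tacr3, and 1 probe each limits Penk, Tac1, Oprk1 and Oprd1.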
